A study of Mus musculus with 14 samples.

Results

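The 9 genes described here carry the signal from RNA in the cytosol to the interferon genes, and they were chosen by name. They are the 3 RNA sensors Rigi (also called Ddx58), Ifih1 and Dhx58, their adaptor Mavs, the ubiquitin enzymes Trim25, Traf3 and Otud5, and the coactivators Crebbp and Ep300. Every array probe whose accession belonged to one of them in the RefSeq gene table was taken, which gave 18 probes, and all 18 were well above background on all 14 arrays. The 9 genes are part of 24908 genes and unnamed transcripts that could be tested. Splenocyte RNA was measured 2 weeks after 1 immunization with complete Freund's adjuvant and type II collagen, on 1 one-colour Agilent array per mouse. The 7 control mice were C57BL/6 wild type (WT). The other 7, the mutant mice, carried the Tmem173gt allele of Sting on both chromosomes (Sting gt/gt, golden ticket), a point mutation made with ENU on the C57BL/6 background. The age given for all mice is 10 to 14 weeks, in the study's methods the age at immunization, and all were immunized, so no array shows the resting state. WT mice were bought from an animal centre and Sting gt/gt mice came from another laboratory, so the allele and the origin of the colony cannot be told apart. The allele is in every cell of the mouse, and whole splenocytes were used after lysis of red blood cells.

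RIG-I, encoded by Rigi, and MDA5, encoded by Ifih1, are helicases that bind viral RNA, and LGP2, encoded by Dhx58, is a relative that lacks the signaling domain and tunes the other sensors. Bound RIG-I and MDA5 meet MAVS on the mitochondrion, and MAVS recruits TRAF3 and the kinases that activate IRF3. CBP (Crebbp) and p300 (Ep300) are acetyltransferases that join IRF3 at the interferon beta promoter. STING is the adaptor for cytosolic DNA and meets this route at the kinases, and the sensors themselves are made in larger amounts when cells see interferon.

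The arrays were scanned on separate days. Replicates 1 to 3 of both genotypes belong to scan day 1 and replicates 4 to 7 to scan day 2. On scan day 2 no slide held both genotypes, so slide and genotype cannot be told apart there, and 2 slides of scan day 1 held both, with 5 arrays. The targeted gene Sting1 lay between 2.45 and 2.77 on the log2 scale in mutant mice and between 2.35 and 2.85 in WT, so its RNA did not separate the genotypes. Levels here are log2 of the processed signal over the 75th percentile of the same array, and a difference is Sting gt/gt minus WT on that scale.

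Upstream letters were read because the sensors moved from mouse to mouse with interferon-inducible genes, as given further on. They are shown for Rigi, Ifih1 and Trim25, the genes among the 9 whose window held a match to the patterns below. Windows of the 9 genes without a match are not shown. Xaf1, the gene most like the sensors, is added. Each line holds the 250 bases before a RefSeq start site (build GRCm38.p6), 5′ to 3′ on the strand of the gene. Capitals mark matches to GAAANNGAA or AANNGAAA on either strand, letters of the kind that interferon regulatory factors bind. The 2 patterns can overlap, and their letters were chosen after these windows had been read.
Rigi, chr4:40239826-40240075, minus strand: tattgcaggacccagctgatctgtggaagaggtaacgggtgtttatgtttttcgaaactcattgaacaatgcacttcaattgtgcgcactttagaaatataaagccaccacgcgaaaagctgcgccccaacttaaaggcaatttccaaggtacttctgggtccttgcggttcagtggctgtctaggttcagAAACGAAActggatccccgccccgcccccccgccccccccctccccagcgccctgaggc
Ifih1, chr2:62646256-62646505, minus strand: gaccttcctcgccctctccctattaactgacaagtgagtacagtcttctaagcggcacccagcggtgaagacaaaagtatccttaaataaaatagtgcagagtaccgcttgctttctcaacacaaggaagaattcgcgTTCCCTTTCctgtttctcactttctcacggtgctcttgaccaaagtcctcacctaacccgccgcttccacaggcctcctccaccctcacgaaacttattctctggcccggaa
Trim25, chr11:88999153-88999402, plus strand: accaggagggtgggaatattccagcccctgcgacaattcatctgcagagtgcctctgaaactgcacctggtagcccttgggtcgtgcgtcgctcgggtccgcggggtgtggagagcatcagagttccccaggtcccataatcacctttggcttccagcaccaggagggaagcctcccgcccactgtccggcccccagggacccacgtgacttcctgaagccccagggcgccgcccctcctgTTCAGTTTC
Xaf1, chr11:72301379-72301628, plus strand: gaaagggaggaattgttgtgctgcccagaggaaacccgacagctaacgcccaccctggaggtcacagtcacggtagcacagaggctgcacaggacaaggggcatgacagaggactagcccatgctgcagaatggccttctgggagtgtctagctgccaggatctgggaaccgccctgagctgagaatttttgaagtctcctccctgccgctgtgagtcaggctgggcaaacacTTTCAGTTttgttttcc
The pattern GAAANNGAA occurred in 7.13% of 32851 windows of this length over all genes, and AANNGAAA in 21.3%. Counted by gene, as below, the shares were 8.18% and 23.9% of 27025 genes. Of the 9 genes, 8 had a window. GAAANNGAA was found in 2 of these, 112 bases before the start of Ifih1 and 9 before that of Trim25, and AANNGAAA in 1, 59 bases before the start of Rigi. Among 14 interferon-inducible genes with a window, 6 held the first pattern and 9 the second. A match is a string of letters and not a bound site, and Dhx58 had no window in the table.

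None of the 9 genes passed the threshold between Sting gt/gt and WT mice, an unadjusted p under 0.05 by limma, while 3.48% of all tested genes did. Adjusted p was 0.9998 for all 9, and 0.00401% of all genes had an adjusted p under 0.05. In no gene did the groups separate, as they did in 0.0442% of all genes. The fitted difference was below 0 for 7 of the 9 genes, against 45.5% of all genes, and its median was -0.08 over the 9 genes and 0.02 over all genes. Standard errors of the 9 genes lay between 0.12 and 0.17, so a difference of the size of the median could not be detected with these arrays. Trim25, Otud5, Crebbp and Ep300 stand in a gene table that the study made from the present arrays, and their direction therefore adds no independent evidence. All 4 were below 0, with a median of -0.14, and of the other 5 genes 3 were below 0, with a median of -0.0049. The plot of levels shows how far the arrays of each genotype overlapped.

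**Figure D1:**
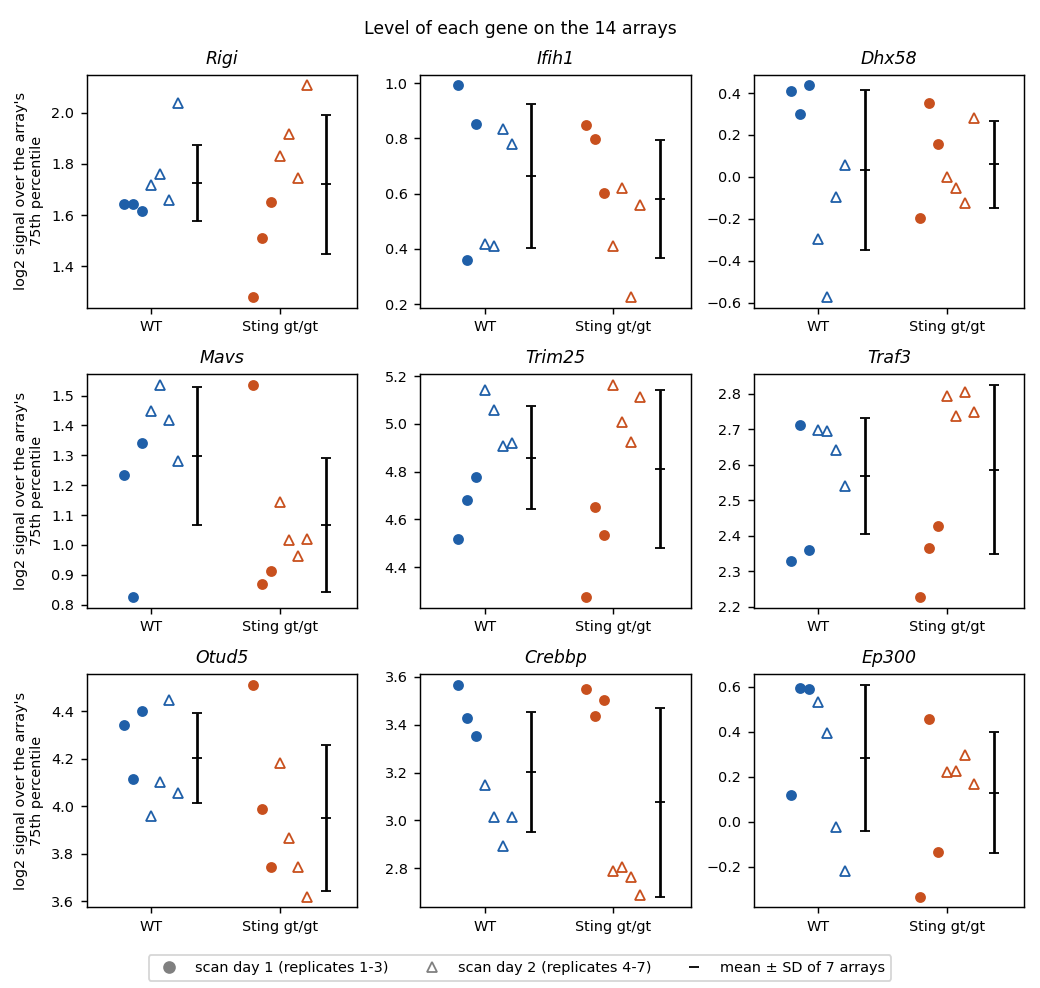
Log2 signal over the 75th percentile of the array (vertical axis, its range set for each gene) for the 9 genes, with 7 WT and 7 Sting gt/gt arrays as points in order of replicate number. Filled circles are scan day 1, open triangles scan day 2, and bars the mean ± SD of 7 arrays. The genotypes overlap in every panel, and in Rigi, Trim25 and Crebbp the scan days lie apart in both genotypes.

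Rigi was the sensor with the smallest difference. Its level ran from 1.28 to 2.11 in mutant mice (median 1.74), against 1.62 to 2.04 in WT (median 1.66). The Sting gt/gt arrays thus reached both below and above all WT arrays. The difference was -0.0049 (SE 0.12, 95% interval -0.27 to 0.26), and an exact permutation test over the 3432 ways to part the arrays gave p = 0.971. Its sign changed when single arrays were left out. Rigi was read by 4 probes and this one, A_55_P1965000, was the brightest. The other 3 differed by -0.14, -0.10 and -0.14, with SE from 0.13 to 0.20.

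Ifih1 was read by 1 probe. Its level ran from 0.23 to 0.85 in mutant mice (median 0.60), against 0.36 to 0.99 in WT (median 0.78), and 5 of the 7 Sting gt/gt arrays were below the WT median. The difference was -0.08 (SE 0.13, exact permutation p = 0.530).

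Dhx58, also read by 1 probe, ran from -0.20 to 0.35 in mutant mice (median -0.0017), against -0.57 to 0.44 in WT (median 0.06). All Sting gt/gt arrays lay inside the WT range, which was the widest of the 9 genes. The difference was 0.03 (SE 0.16, exact permutation p = 0.881). The 95% intervals of the 3 sensors ran from -0.27 to 0.26 for Rigi, -0.36 to 0.20 for Ifih1 and -0.32 to 0.37 for Dhx58.

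Mavs, the adaptor that RIG-I and MDA5 converge on, had the largest estimate among the genes outside that table. Its level ran from 0.87 to 1.54 in mutant mice (median 1.02), against 0.83 to 1.54 in WT (median 1.34). Of the 7 Sting gt/gt arrays, 6 were below the WT median, and the exception, Sting gt/gt replicate 1, had the highest value of all 14 arrays, level with WT replicate 5 to 2 decimals. The difference was -0.23 (SE 0.13, 95% interval -0.50 to 0.04), with p = 0.0885 by limma and p = 0.0816 by the exact permutation test. Both the highest Sting gt/gt array and the lowest WT array, replicate 2, stood apart from their groups. Leaving out WT replicate 2 gave -0.31 (unadjusted p = 0.0162 by limma), and leaving out the first mutant replicate gave -0.31 (unadjusted p = 0.0157 by limma). Over all genes 1010 and 1967 passed in these 2 fits, against 868 with all arrays. Both arrays ran against the difference, so leaving either out had to enlarge it. With any other array left out it ran from -0.24 to -0.19, and the unadjusted p from 0.0968 to 0.169 by limma. Blocking on slide, so that the 5 arrays of shared slides decide, gave 0.087.

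Among the ubiquitin enzymes, Trim25, the ligase that modifies RIG-I, did not pass the threshold. Its level ran from 4.27 to 5.16 in mutant mice (median 4.93), against 4.52 to 5.14 in WT (median 4.91). The difference was -0.05 (SE 0.15, 95% interval -0.36 to 0.27, exact permutation p = 0.750), so a change in either direction was not excluded. Its dimmer probe gave -0.21 (SE 0.12, exact permutation p = 0.0728). That probe differed by -0.45 on scan day 1 and by -0.03 on scan day 2 (unadjusted p = 0.0381 and 0.766 by limma).

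Traf3, the ligase that MAVS recruits to reach the kinases, ran from 2.23 to 2.80 in mutant mice (median 2.74), against 2.33 to 2.71 in WT (median 2.64). Its mutant arrays spread past WT on both sides, since 4 Sting gt/gt arrays were above the highest WT array and 1 was below the lowest. The difference was 0.02 (SE 0.12, exact permutation p = 0.874), and its other probe gave -0.02.

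Otud5, a deubiquitinase that removes the chains TRAF3 needs for signaling, had an estimate below 0 on all 3 of its probes. On the brightest probe it ran from 3.62 to 4.51 in mutant mice (median 3.87), against 3.96 to 4.45 in WT (median 4.12). Of the mutant arrays, 4 lay below every WT array, while Sting gt/gt replicate 1 was above all others. The difference was -0.25 (SE 0.14, 95% interval -0.55 to 0.04, exact permutation p = 0.0921). A second probe, A_51_P288839, fell by 0.31 (SE 0.14, unadjusted p = 0.0374 by limma, exact permutation p = 0.042) and the third differed by -0.21 (unadjusted p = 0.125). Leaving out Sting gt/gt replicate 1, which had to enlarge the difference, put the brightest probe at -0.35 (unadjusted p = 0.011 by limma). With any other array left out it ran from -0.29 to -0.20, and the unadjusted p from 0.0630 to 0.181 by limma.

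Crebbp was read by 2 probes that did not give the same picture. The brighter one ran from 2.69 to 3.55 in mutant mice (median 2.80), against 2.89 to 3.57 in WT (median 3.15), a difference of -0.13 (SE 0.17, exact permutation p = 0.478). Of the mutant arrays 4, all of scan day 2, lay below every WT array. The dimmer probe, A_66_P106055, lay between 0.92 and 1.21 in mutant and between 0.97 and 1.56 in WT mice and fell by 0.27 (SE 0.10, unadjusted p = 0.0189 by limma, exact permutation p = 0.0105). The arrays placed the mice in different orders on these probes, with a correlation of 0.39 over the 14 arrays.

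Ep300 ran from -0.33 to 0.46 in mutant mice (median 0.22), against -0.22 to 0.59 in WT (median 0.39). Of the 7 Sting gt/gt arrays, 6 were below the WT median, but WT replicate 7 was below all Sting gt/gt arrays except replicate 1. The difference was -0.16 (SE 0.16, exact permutation p = 0.347), and the second probe gave -0.07 (SE 0.31).

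Over the 18 probes, 16 had a difference below 0 and 2 above, with a median of -0.13, while 46.2% of all tested probes were below 0. The 2 probes past an unadjusted p under 0.05, those of Otud5 and Crebbp given above, compare with 1.67% of all probes that passed in that direction, and neither had an adjusted p under 0.05. Probes of 1 gene share its transcripts and are not independent. The plot of probe differences sets the scanner values beside the deposited ones.

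**Figure D2:**
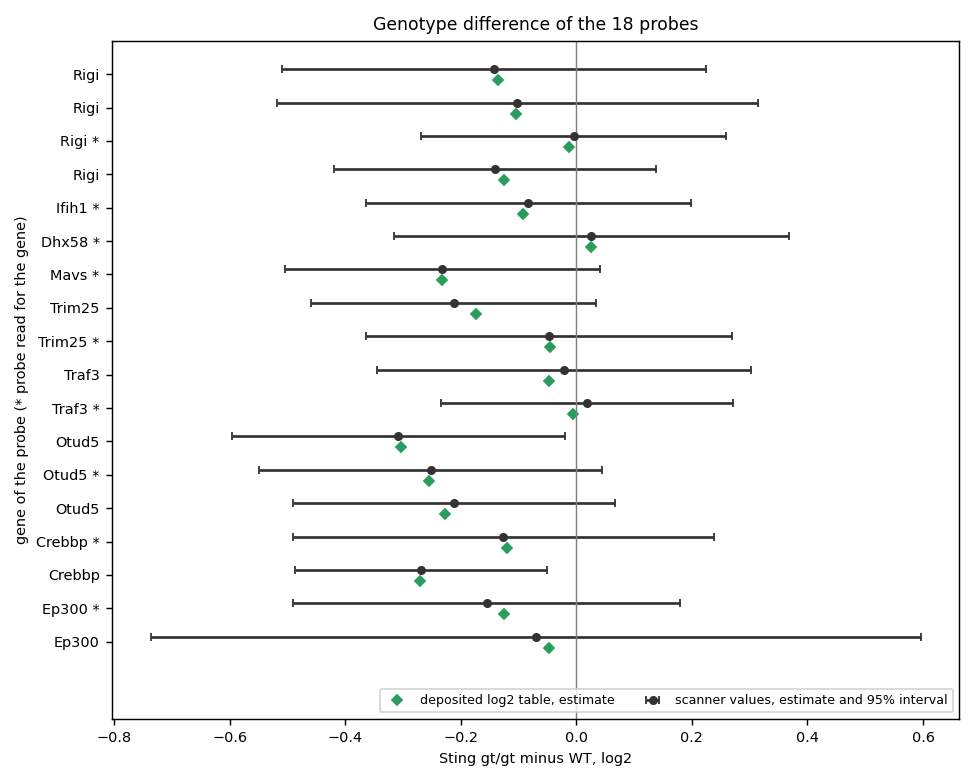
Sting gt/gt minus WT on the log2 scale (horizontal axis) for the 18 probes, named by gene, from the scanner values (circles, with the 95% interval of limma) and from the deposited log2 table (diamonds). Most estimates lie left of 0, and 2 of the scanner intervals, 1 of Otud5 and 1 of Crebbp, do not reach it.

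Scan day separated the levels of several of these genes. With genotype in the model, 4 of the 9 had an adjusted p under 0.05 for scan day by limma, as had 38.8% of all genes. Day 2 was higher by 0.46 for Trim25, 0.30 for Traf3 and 0.29 for Rigi, and lower for Crebbp, which fell by 0.58. In the same model none of the 9 genes passed an unadjusted p under 0.05 for genotype by limma (7.27% of all genes did). The SE of the genotype difference went from 0.17 to 0.08 for Crebbp (unadjusted p = 0.126) and from 0.15 to 0.09 for Trim25 (unadjusted p = 0.593). The lowest unadjusted p was 0.0699, for Otud5. Probes of the same gene differed in the shift between scan days. The brightest Trim25 probe was higher on scan day 2 by 0.46 and the other differed by -0.11. In Rigi the brightest probe stood at 0.29 and the other 3 between -0.26 and -0.11. The brightest Ep300 probe was at -0.02 and its second probe at -1.14, the largest shift of the 18. In Traf3 both probes rose, by 0.30 and 0.47. The brightest Rigi probe correlated with the other 3 at 0.15 to 0.27 over the 14 arrays and at 0.61 to 0.67 once the mean of each scan day was taken away, and the 2 probes of Trim25 at 0.18 and then 0.84.

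Markers of other cells moved with scan day as well. Summed signals are given in multiples of the 75th percentile. The erythroid list had a median of 1364 on scan day 1 and 803 on scan day 2. The medians were 1025 and 522 for the neutrophil list and 187 and 81.1 for the plasmacytoid dendritic cell list. The ranges of the days did not overlap in any of these 3 sums. Single genes of the last list did not fall together. Of its 5 genes, 2 were higher on scan day 2 and 1 was lower (limma, adjusted p below 0.05). By the same measure 3 genes were lower and none higher in each of the erythroid and neutrophil lists. Of 5 NK cell genes 4 were higher and 1 lower, and of 5 plasma cell genes 3 were higher and none lower. By genotype, no list other than the erythroid one had a gene past an unadjusted p under 0.05, and there 2 of 6 were lower in Sting gt/gt mice. The summed erythroid signal lay between 752 and 1475 in mutant and between 755 and 1466 in WT mice. The markers of B cells (7 of 7) and T cells (6 of 6) were well above background on all arrays. The part of cell numbers in the levels of the 9 genes was not tested, and in whole splenocytes fewer cells of a type and less RNA per cell cannot be told apart.

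The log2 table that the authors deposited does not carry these shifts. Over 31753 probes with a value on every array, 39% had an adjusted p under 0.05 for scan day in the scanner values. In the deposited table limma found 0, with 424 probes (1.34%) at an unadjusted p under 0.05. The median absolute difference between the days was 0.27 and 0.06. For the 18 probes of the 9 genes the difference between days ran from -1.14 to 0.47 in the scanner values, with 6 at an adjusted p under 0.05. In the deposited table it ran from -0.16 to 0.12, with none at an unadjusted p under 0.05 by limma. The deposited values of an array still correlated with its scanner values at over 0.99. How the table was made is not given in the sources used here, nor whether a term for scan day was removed, and the fit on it spends no degree of freedom on scan day. In it 17 of the 18 probes were below 0 and 4 passed an unadjusted p under 0.05 in that direction, all 3 of Otud5 (-0.30, -0.25 and -0.23) and A_66_P106055 of Crebbp (-0.27), against 4.09% of all probes. None of the 4 had an adjusted p under 0.05, the lowest being 0.487 by limma.

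**Figure D3:**
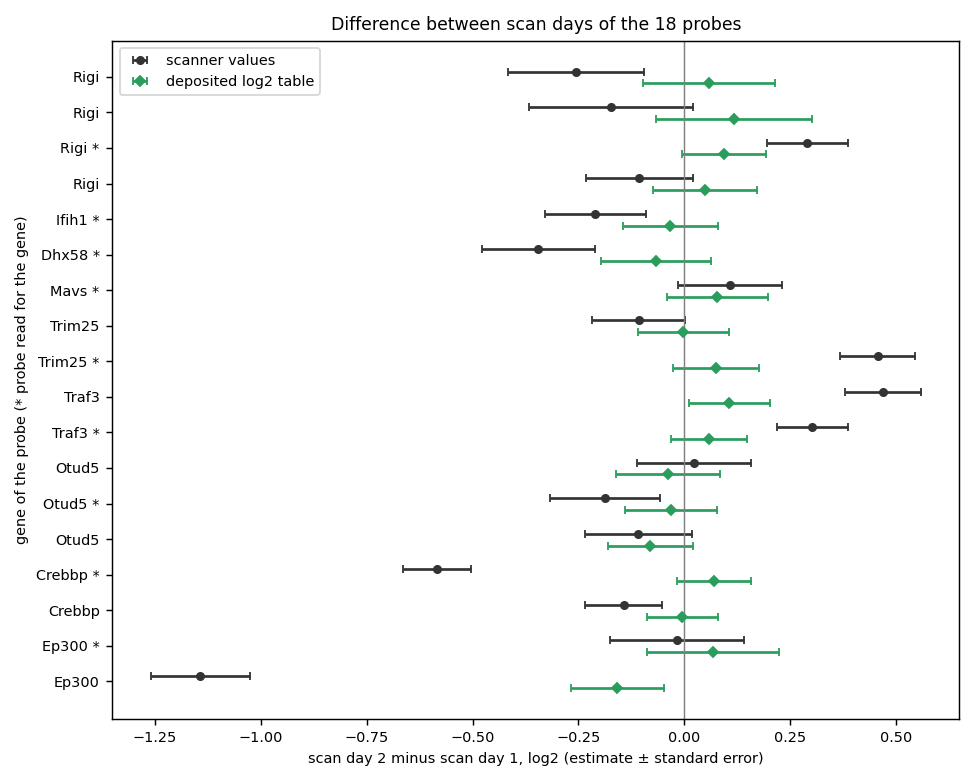
Scan day 2 minus scan day 1 on the log2 scale with genotype in the model (horizontal axis, estimate ± standard error) for the 18 probes, in the scanner values (circles) and in the deposited log2 table (diamonds). The scanner values spread from -1.14 to 0.47 and probes of the same gene lie on both sides of 0, while the deposited values stay between -0.16 and 0.12.

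The genotypes were also compared within each scan day. On scan day 1, with 3 mice per group, none of the 9 genes passed an unadjusted p under 0.05 by limma (3.86% of all genes did), 7 were below 0, and an exact test of 3 against 3 cannot go under p = 0.1. On scan day 2, with 4 mice per group, 2 passed (23.3% of all genes did, about the share of the 9) and 4 were below 0. The genotypes did not overlap on scan day 2 in 3 of the 9 genes, and in 14.7% of all genes. On scan day 1 they overlapped in all 9, and did not in 9.23% of all genes. The smallest p that an exact test of 4 against 4 allows is 0.0286. With each gene read by its brightest probe, Mavs and Otud5 were the 2 genes below 0 on both days. Dimmer probes of Crebbp (-0.37 on scan day 1 and -0.19 on scan day 2), Trim25 (-0.45 and -0.03) and Ep300 (-0.07 and -0.07) were also below 0 on both. Those of Rigi and Traf3 changed sides.

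On scan day 2 Mavs lay between 0.96 and 1.14 in Sting gt/gt mice and between 1.28 and 1.54 in WT mice, so the groups did not overlap. The difference was -0.39 (SE 0.10, unadjusted p = 0.00305 and adjusted p = 0.0707 by limma). On scan day 1 it was -0.03 (SE 0.23).

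The brighter Crebbp probe lay between 2.69 and 2.80 in Sting gt/gt mice and between 2.89 and 3.15 in WT mice on scan day 2, again without overlap. The difference was -0.26 (SE 0.09, unadjusted p = 0.0229 and adjusted p = 0.151 by limma), and on scan day 1 it was 0.05 (SE 0.13). The dimmer Crebbp probe differed by -0.37 on scan day 1 and by -0.19 on scan day 2 (unadjusted p = 0.0555 and 0.107 by limma). Traf3 was higher in all 4 Sting gt/gt mice, between 2.74 and 2.80 against 2.54 to 2.70, with a difference of 0.13 (SE 0.09, unadjusted p = 0.180 by limma), and gave -0.13 on scan day 1. For Mavs, Crebbp and Traf3 the exact permutation p on scan day 2 was 0.0286, the smallest possible. On that day WT and Sting gt/gt arrays sat on separate slides.

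**Figure D4:**
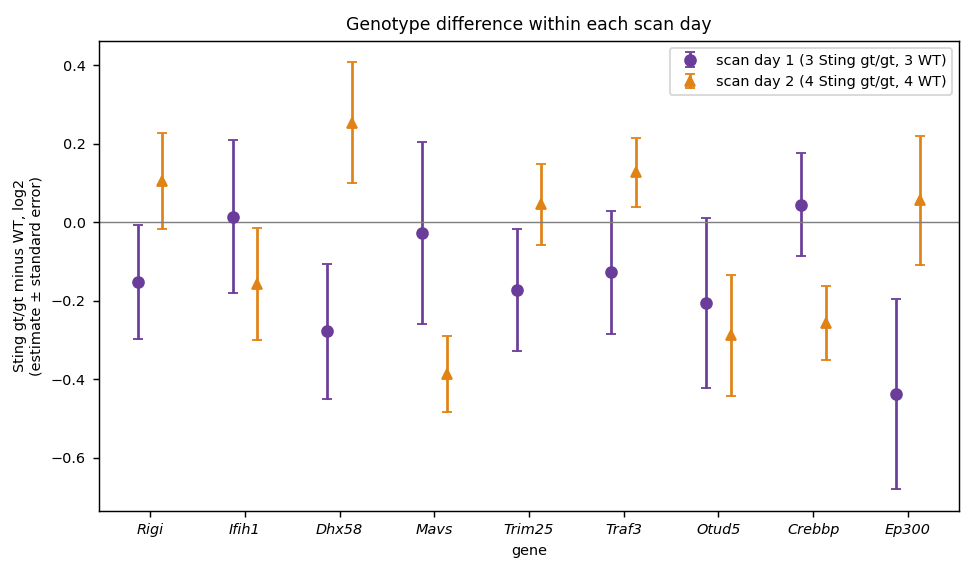
Sting gt/gt minus WT on the log2 scale (vertical axis, estimate ± standard error of limma) for each of the 9 genes on scan day 1 (circles, 3 mice per group) and scan day 2 (triangles, 4 mice per group). Each gene is read by its brightest probe. On these probes Mavs and Otud5 are below 0 on both days, and the estimates of the other 7 genes change sides.

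The change of the genotype difference from one day to the other was tested as an interaction. Dhx58 moved from -0.28 to 0.25, a change of 0.53 (SE 0.23, unadjusted p = 0.0403 by limma, exact permutation p = 0.0343 over 1400 arrangements). Crebbp was tested for this on its brighter probe only. There it changed by -0.30 (SE 0.13, unadjusted p = 0.0434 by limma, exact permutation p = 0.0129). These were the 2 of the 9 genes at an unadjusted p under 0.05, a level that 18% of all genes reached, and neither had an adjusted p under 0.05, as 0.767% of all genes did. For Mavs the change was -0.36 (SE 0.23, exact permutation p = 0.213), so a difference between days was not shown.

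A single mouse, Sting gt/gt replicate 1, held the lowest or the highest of the 14 values in 6 of the 9 genes. It was lowest for Rigi, Trim25, Traf3 and Ep300 and highest for Mavs and Otud5. Over all genes it held an extreme in 24.8%, and Sting gt/gt replicate 5 in 24.2%. With this mouse left out, Mavs and Otud5 passed an unadjusted p under 0.05, and the count over all genes rose from 868 to 1967.

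Other genes of the route from RNA to interferon were looked up in 5 lists. Of 87 tested genes, leaving out the 9, 1 was lower and 1 higher at an unadjusted p under 0.05 by limma, which is 2.30% and below the share over all genes. With scan day as a term 6 of the 87 passed (7.27% of all genes did) and with a block for the replicate number 5 (5.68% of all genes), and the calls this changed are given beside the genes. Among 22 genes of RNA sensing and the ubiquitin steps next to it, 12 were below 0 and 10 above, with a median of -0.01 and none past the threshold. The lowest was Isg15, a ubiquitin-like modifier, at -0.40 (SE 0.20), and the highest Prkra, a partner of the RNA-activated kinase, at 0.24 (SE 0.14). Both passed with scan day as a term (Isg15 unadjusted p = 0.0118, Prkra 0.0202, by limma) and with the replicate block (0.0313 and 0.0483), with no adjusted p under 0.05.

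Of 20 partners of MAVS at the mitochondrion, 4 were below 0 and 16 above, with a median of 0.06. Fadd, a death domain adaptor, was the 1 that rose. It lay between -0.25 and 0.02 in mutant mice (median -0.11), against -0.59 to -0.16 in WT (median -0.29), a difference of 0.21 (SE 0.09, unadjusted p = 0.0325 and adjusted p = 0.9998 by limma). It passed with scan day as a term (unadjusted p = 0.0204 by limma) and did not with the replicate block (0.0532). The largest estimates of the list, Nlrx1 at 0.26 (SE 0.13) and Marchf5 at -0.31 (SE 0.17), did not pass. Nlrx1 encodes a mitochondrial protein that restrains MAVS, and Marchf5 a mitochondrial ubiquitin ligase.

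Of 17 kinases and adaptors, 10 were below 0 and 7 above (median -0.02), from Tab3 at -0.24 (SE 0.15) to Ikbke at 0.24 (SE 0.17), and none passed. Of 13 tested transcription factors and targets, 7 were below 0 and 6 above (median -0.06), from the acetyltransferase Kat2b at -0.35 (SE 0.23) to the interferon gene Ifnl3 at 0.20 (SE 0.14), and none passed. With scan day as a term Kat2b passed (unadjusted p = 0.0020 by limma, adjusted p = 0.563) and so did Creb1, at -0.26 (0.0499), as both did with the replicate block (0.0127 and 0.0230). The interferon genes Ifnb1, Ifna2 and Ifna4 had probes that were well above background on too few arrays to be tested.

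Among 16 interferon-inducible genes, 15 were below 0 and 1 above, with a median of -0.19, a lowering that was known from these arrays when the list was set. Herc6, a ligase for ISG15, fell by 0.32 (SE 0.12, unadjusted p = 0.0131 and adjusted p = 0.9998 by limma). It ran from -1.90 to -1.43 in mutant mice (median -1.56), against -1.74 to -1.06 in WT (median -1.19). The other 15 did not pass without a term for scan day or replicate, from Isg15 at -0.40 to Oas1a at 0.01 (SE 0.24). These genes move together in each mouse and are not independent.

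The sensors went with interferon-inducible genes from mouse to mouse. With the mean of each scan day taken away, the average of Rigi, Ifih1 and Dhx58 correlated with the average of the 16 interferon-inducible genes at 0.88 over the 14 arrays, and at 0.89 without that step. The 5 named genes most like the sensor average were Xaf1 (0.94), Parp9 (0.94), Ifi35 (0.93), Rtp4 (0.91) and Parp10 (0.89). Of the 16 interferon-inducible genes, 12 were within the top 5% of 14721 genes, those above 0.42, and the median correlation was 0.76, against 0.0013 over all genes. The lowest of the list was Rsad2 at 0.04. These are descriptions over the same 14 arrays, which share brightness and cell makeup.

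Taken singly, and with the mean of each scan day taken away, the brightest Rigi probe correlated with the interferon-inducible average at 0.61, Ifih1 at 0.70 and Dhx58 at 0.67. Without that step Rigi was at 0.16, Ifih1 at 0.74 and Dhx58 at 0.70, so the value of Rigi rests on it. The remaining Rigi probes gave 0.26 to 0.35 with it and 0.32 to 0.44 without. Rigi and Dhx58 correlated with each other at 0.74 with the scan-day means taken away and at -0.0070 without, and Rigi and Ifih1 at 0.03 and -0.31. With the scan-day means taken away, the interferon-inducible average correlated with Mavs at 0.09, with Otud5 at 0.15, with Ep300 at -0.11 and with Traf3 at -0.41. Trim25 was at 0.23 and at -0.19 without that step, and Crebbp at -0.0018 and at 0.31.

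**Figure D5:**
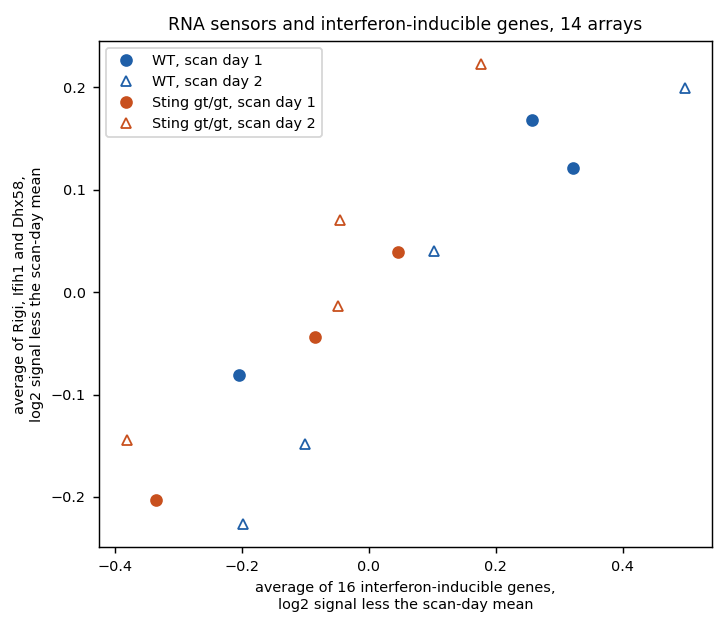
Average log2 signal of Rigi, Ifih1 and Dhx58 (vertical axis) against that of 16 interferon-inducible genes (horizontal axis), each less the mean of its scan day, with 1 point per mouse. The points rise together (correlation 0.88 over 14 arrays), the 3 highest points on the horizontal axis are WT and the 2 lowest are Sting gt/gt, and both genotypes lie in between.

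The coactivators had other company, again with the scan-day means taken away. Each was read by its brighter probe, which correlated with the other probe of the gene at 0.19 for Crebbp and 0.47 for Ep300. The values below therefore hold for the brighter probes. The genes most like the average of Crebbp and Ep300 were Creb1 (0.93), which encodes the factor that CBP was named for, Ahsa2 (0.92), Dusp11 (0.91), Zscan29 (0.89) and Rbbp6 (0.88), and the interferon-inducible genes had a median of -0.04. Trim25 was at 0.70 with this average and stood at place 163 of 14722 genes, Traf3 was at 0.41 and Mavs at 0.02. Against the coactivators singly, Trim25 was at 0.82 with Ep300 and -0.27 with Crebbp, and Traf3 at 0.60 and -0.43. Crebbp and Ep300 themselves correlated at -0.17, so the average is not the pattern of either gene. Mavs and Otud5 correlated at 0.76 with the scan-day means taken away and at 0.62 without, and Mavs and Traf3 at -0.66 and -0.22.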

How the data were processed

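RNA of 14 spleens was measured, 1 array per mouse. The deposited intensity files come from Agilent Feature Extraction (version 11.0.1.1), run by the authors, whose processed intensity is corrected for background and not normalized between arrays. The authors also deposited a table of log2 values whose making is not given in the sources used here.

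The log2 intensity less each array's 75th percentile was analysed, without spots with an outlier flag. A probe was kept if 7 or more arrays had it well above background (31766 probes) and was named through RefSeq accessions, and a gene was read by its brightest probe. Sting gt/gt and WT mice were compared by limma 3.58.1 in R 4.3.3 without covariates. Single values were also compared by two-sided exact permutation tests. Adjusted p-values are Benjamini-Hochberg over all genes or probes, and the steps were tested on simulated data. The number of arrays limits the precision, and 1 array stands for 1 mouse.

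The 9 genes, the lists and the tests were chosen with earlier results of these data known. Named were all 9 genes and their probes, list genes past the threshold with the largest rise and fall of each list, and the 5 genes most like each of 2 averages. Arrays of the same number in both genotypes deviated together (correlations 0.16 to 0.53, and -0.41 to 0.25 once scan-day means were removed), so the numbers pair arrays through the scan day read from the file headers. For normexp, the spot median replaced the mean signal. Other steps used pandas 2.3.3 and numpy 2.4.6 in Python 3.11.15.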

Additional observations from a re-analysis of the deposited data

Results flagged for a closer look

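In 3 of the 18 sets of 7 arrays (9 genes, 2 genotypes) an array stood apart from the others of its genotype. Chance gives about 1 in 20. The highest WT array for Rigi, replicate 7, was at 2.04. The highest Sting gt/gt array for Mavs, replicate 1, was at 1.54, and the lowest WT array for Mavs, replicate 2, was at 0.83. Both Mavs arrays belong to scan day 1. The mutant one was in effect level with the highest WT array, replicate 5, also at 1.54. The WT one lay below all mutant arrays.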

How the results depend on the processing

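Under 31 other settings and 1 chosen after seeing the data (scan day as a term with slide as a random block), Otud5 stayed below 0 in all 32, from -0.35 to -0.014. Mavs stayed below 0 except with slide as a fixed block (0.087), and Ep300 except in replicates 4-7 alone (0.056). Reversed values were 0.0045 for Rigi and -0.0013 for Traf3 with normexp and quantile normalization, 0.045 for Rigi and 0.026 for Trim25 with array weights, -0.028 for Dhx58 and -0.036 for Traf3 without scaling, -0.0051 for Traf3 in the deposited table and -0.0020 with the mean of its probes. With slide as a random block they were -0.096 for Dhx58, -0.087 for Traf3 and 0.018 for Crebbp, and as a fixed block 0.075 for Ifih1, -0.35 for Dhx58, -0.16 for Traf3 and 0.064 for Crebbp. In replicates 1-3 alone they were 0.014 for Ifih1, -0.28 for Dhx58, -0.13 for Traf3 and 0.045 for Crebbp, and in replicates 4-7 alone 0.11 for Rigi and 0.046 for Trim25. With 1 array left out, the ranges were -0.070 to 0.069 for Rigi, -0.075 to 0.093 for Dhx58, -0.11 to 0.042 for Trim25 and -0.021 to 0.078 for Traf3.

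The number of the 9 genes past the threshold went from 0 to 1 with quantile normalization, with normexp and in the deposited table (Otud5 each time). Of all 24908 genes 949, 907 and 1928 passed in these settings. The number was also 1 with array weights (Mavs, with 4360 of all genes) and with slide as a fixed block (Ep300, with 896 of all genes). It was 2 in replicates 4-7 alone, where 23.3% of all genes passed and 4 of the 9 genes were below 0. With 1 array left out it ranged from 0 to 2, the number below 0 from 5 to 9, and the median from -0.13 to -0.055. The median was -0.14 without scaling, -0.16 with slide as a fixed block, -0.15 in replicates 1-3 alone and 0.046 in replicates 4-7 alone. Over all genes the 868 became 1928 in the deposited table, 4360 with array weights, 445 with slide as a random block, 1812 with scan day as a term, 1403 with both, 5805 in replicates 4-7 alone, and 496 to 1967 with 1 array left out. With the replicate block 1416 genes passed and no call among the 9 genes changed, while Fadd lost its call. The 2 list genes past the threshold became 6 with normexp, 8 in the deposited table, 13 with array weights, 5 with the replicate block, 1 with slide as a random block, 6 with scan day as a term, 7 with both, 1 in replicates 1-3 alone, 15 in replicates 4-7 alone, and 1 to 11 with 1 array left out. The number of the 9 genes whose genotype difference changed with scan day (interaction in limma, adjusted p under 0.05) was 0 in each setting it was run in, and 2 had an unadjusted p under 0.05 in the main comparison. Causes were not tested.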
